A study of Arabidopsis with 12 samples.

Results

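The chloroplast genome of Arabidopsis thaliana encodes core subunits of every photosynthetic complex, and 44 of its loci with that function were followed here, out of 27371 genes in the deposited expression table. The loci were taken by identifier (ATCG numbers) and cover photosystem II (psb, 15 genes), photosystem I (psa, 5 genes), the cytochrome b6f complex (pet, 6 genes), the ATP synthase (atp, 6 genes), the NDH complex (ndh, 11 genes) and the large subunit of Rubisco (rbcL). RNA had been sequenced from whole 14-day-old seedlings in 4 groups of 3 samples: wlim2a-1 with flg22, wlim2a-1 with mock, wild type (WT) with flg22 and WT with mock. WT is the Columbia-0 accession, and wlim2a-1 is a CRISPR-Cas9 line of the same background with a frameshift in WLIM2A, a gene for an actin-bundling LIM domain protein. flg22, a flagellin fragment by which plants sense bacteria, was given at 1 µM for 1 h, and mock seedlings received water for the same time. The study asked how WLIM2A and immune signalling bear on each other, and for the chloroplast genes that gives a genotype comparison under each treatment and an flg22 comparison in each genotype.

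Photosystem II splits water and passes electrons through plastoquinone and the cytochrome b6f complex to photosystem I, while the ATP synthase uses the proton gradient so formed. The NDH complex returns electrons from ferredoxin to plastoquinone, and Rubisco fixes carbon dioxide. In each of these complexes chloroplast-encoded subunits are assembled with subunits encoded in the nucleus. The chloroplast genes lie in operons, which are transcribed by a plastid-encoded polymerase guided by nuclear sigma factors and by a nuclear phage-type polymerase, and most of the resulting RNA is then cut, spliced, edited and stabilised by nuclear proteins.

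The table holds 1 FPKM value (fragments mapped to the gene, scaled by its length and by the amount sequenced) for each gene and group. The replicates therefore cannot be seen separately, and no difference below has an error or a test. The study names quartile normalization for its group comparison, so the values need not be scaled to the mapped total. Differences are given as log2(FPKM + 1) of the group named first minus the other, a gene counted as tested when at least 1 group reached 1 FPKM (19323 genes), and higher or lower is counted at 2-fold or more on that scale. The added 1 makes the limit stricter for low genes, so that a plain FPKM ratio somewhat above 2 may not be counted. The depth of the libraries is unknown. WLIM2A itself stood at 6.20 FPKM in wlim2a-1 with flg22, 10.9 in wlim2a-1 with mock, 11.6 in WT with flg22 and 12.6 in WT with mock; a frameshift leaves the transcript countable, so this level does not check the genotype labels. Another locus, AT2G01021, took 67.4%, 56.5%, 28.9% and 67.4% of all FPKM in the groups in that order. The FPKM outside it summed to 748556, 846188, 841560 and 817691. The poly(A) selection named for the libraries takes up chloroplast RNA poorly, since most of it carries no long poly(A) tail. Fewer chloroplasts, fewer chloroplast-bearing cells, less RNA in each and a different uptake of that RNA cannot be told apart in whole seedlings.

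The shortest genes were set apart, because their values behaved unlike the rest. The 12 genes under 150 bases (90 to 135 bases in the RefSeq annotation), which encode small single-helix subunits of the photosystems and of cytochrome b6f and the psbN product, gave 48 values, of which 24 were listed at 0 and the other 24 lay between 321.5 and 18295 FPKM. No value lay above 0 and under 321.5 FPKM. psaI (ATCG00510), petL (ATCG00590) and petG (ATCG00600) were at 0 in all 4 groups. petN (ATCG00210) was listed only in wlim2a-1 with flg22, at 1080 FPKM, and psbI (ATCG00080) only in WT with mock, at 1365 FPKM. psbF (ATCG00570), which binds the heme of cytochrome b559 together with psbE, stood at 1269 FPKM in wlim2a-1 with flg22, 0 in wlim2a-1 with mock, 0 in WT with flg22 and 984 in WT with mock. psbT (ATCG00690) had the same pattern, with 952 FPKM in wlim2a-1 with flg22, 0 in wlim2a-1 with mock, 0 in WT with flg22 and 2083 in WT with mock. psbL (ATCG00560) was at 0 only in wlim2a-1 with mock, against 832 FPKM in wlim2a-1 with flg22, 1455 in WT with flg22 and 2157 in WT with mock. psbM (ATCG00220) was at 0 only in wlim2a-1 with flg22, against 3494 FPKM in wlim2a-1 with mock, 2322 in WT with flg22 and 1768 in WT with mock. Neighbours in the same operon were therefore at 0 in different groups, and a 0 in this set is given as listed and not as absence of the RNA.

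Only psbJ, psbN and psaJ of the 12 short genes had a value in every group. psbJ (ATCG00550), a small photosystem II subunit, stood at 1457 FPKM in wlim2a-1 with flg22, 379.7 in wlim2a-1 with mock, 734 in WT with flg22 and 1732 in WT with mock. psbN (ATCG00700), which is needed to assemble photosystem II, stood at 2056 FPKM in wlim2a-1 with flg22, 18295 in wlim2a-1 with mock, 1097 in WT with flg22 and 2504 in WT with mock. psaJ (ATCG00630), a peripheral subunit of photosystem I, stood at 984 FPKM in wlim2a-1 with flg22, 820.3 in wlim2a-1 with mock, 3859 in WT with flg22 and 321.5 in WT with mock. These 3 genes took 3 different orders across the groups, and in each group their values were above that of psbA. psbZ (ATCG00300, 189 bases), a photosystem II subunit just above the length limit, was the only longer gene with a 0: it stood at 2.56 FPKM in wlim2a-1 with flg22, 2.84 in wlim2a-1 with mock, 0 in WT with flg22 and 5.01 in WT with mock.

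**Figure D1:**
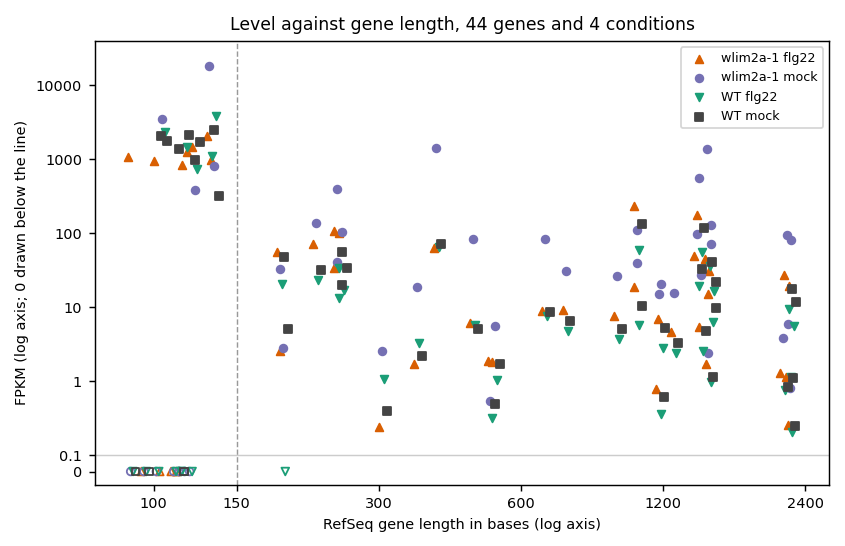
FPKM of the 44 chloroplast-encoded photosynthesis genes in each of the 4 groups (log axis, with values of 0 drawn on a line of their own at the foot) against RefSeq gene length in bases (log axis). Left of the dashed line at 150 bases the values are either 0 or at least 321.5 FPKM, while to its right 31 of 32 genes have a value in every group.

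The remaining 32 genes of at least 150 bases carry the comparisons below, a limit set after these values were seen. In WT with mock their level order began with psbA (ATCG00020), the D1 reaction-centre protein of photosystem II that is replaced most often, at 134 FPKM, and rbcL (ATCG00490) at 118 FPKM. atpE (ATCG00470) and atpH (ATCG00140), subunits of the 2 parts of the ATP synthase, followed at 72.0 and 55.9 FPKM, and psbK (ATCG00070) at 47.6 FPKM. The 9 lowest were all ndh genes, down to ndhF (ATCG01010) at 0.244 FPKM, while ndhK (ATCG00430), the highest of them at 8.52 FPKM, and ndhJ lay among low atp, pet and psb genes such as atpI (6.54 FPKM) and atpF (3.30 FPKM). ndhF stayed under 1 FPKM in all groups (0.258 in wlim2a-1 with flg22, 0.796 in wlim2a-1 with mock, 0.204 in WT with flg22) and was the only longer gene not tested. FPKM is per length, yet some of the shorter of these genes stood above longer partners of their operon. In WT with mock, atpH (246 bases) had 55.9 FPKM and atpA (1524 bases) 9.73. Likewise psaC (246 bases) had 19.8 FPKM and ndhH (1182 bases) 0.614. psbZ (189 bases) went the other way, at 5.01 FPKM against 32.7 for psbC. The order is therefore given as listed and not as relative amounts of RNA. How much of each RNA the poly(A) step retained was not measured.

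**Figure D2:**
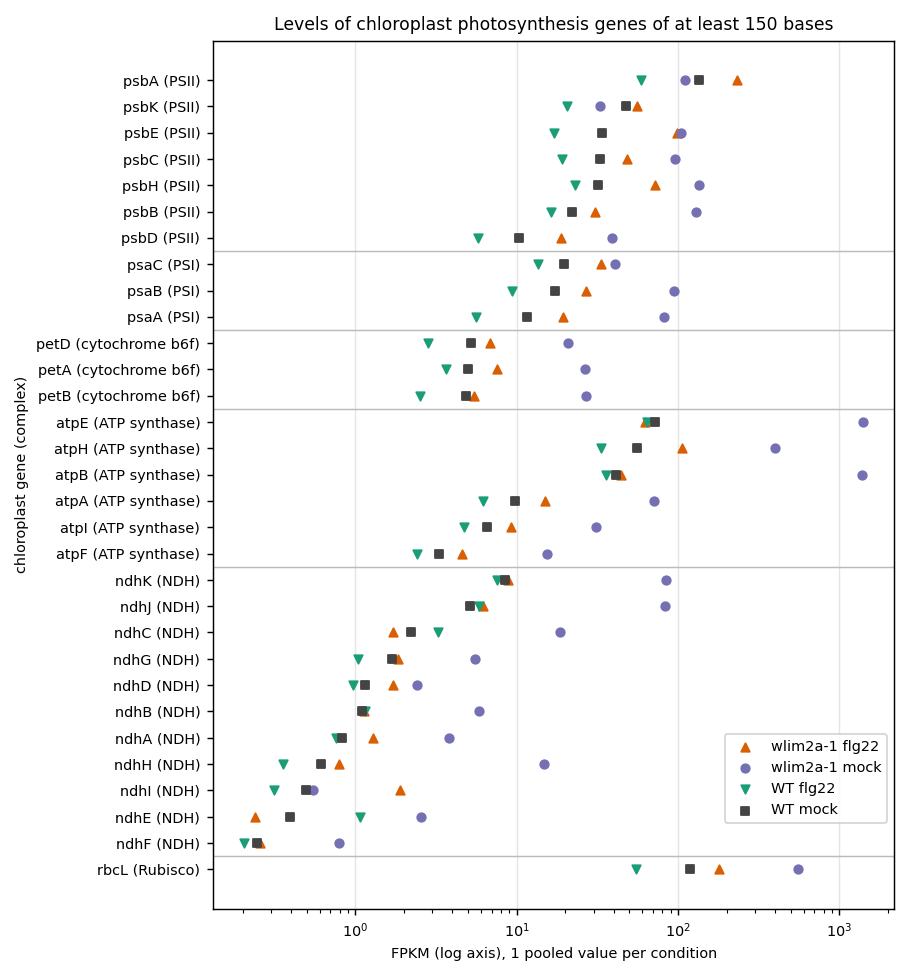
FPKM (log axis) of the 31 chloroplast genes of at least 150 bases that had a value in every group, ordered by complex, with 1 point for each of the 4 groups. The wlim2a-1 mock point lies farthest to the right for most genes and stands far from the other 3 for atpB and atpE (1373 and 1411 FPKM); psbA, psbK and ndhI have their highest value in wlim2a-1 with flg22.

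Without flg22, chloroplast-encoded photosynthesis RNA was higher in wlim2a-1 than in WT. Of the 31 longer genes tested, 26 reached 2-fold higher levels in wlim2a-1 with mock than in WT with mock and 0 reached 2-fold lower ones, with a median log2 difference of 2.05. Over all 40 genes tested, which take in the short genes and their values of 0, 28 were higher and 5 lower, with a median of 1.76. Among all genes tested, 4.48% were higher and 0.611% lower, and the median was 0.01. All 6 atp, 3 pet and 3 longer psa genes were higher, as were rbcL, 8 of 10 ndh and 5 of 8 longer psb genes. Their summed FPKM was 5023 in wlim2a-1 with mock and 710 in WT with mock, which made 0.594% and 0.0869% of all FPKM outside AT2G01021.

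The ATP synthase held the largest differences. Its catalytic beta subunit, atpB (ATCG00480), stood at 1373 FPKM in wlim2a-1 with mock and 41.1 in WT with mock, a ratio of 33.4, while wlim2a-1 with flg22 had 44.4 and WT with flg22 35.5. atpE, the epsilon subunit that is co-transcribed with atpB, stood at 1411 FPKM in wlim2a-1 with mock and 72.0 in WT with mock, a ratio of 19.6, beside 62.9 in wlim2a-1 with flg22 and 64.6 in WT with flg22. For both genes wlim2a-1 with mock was high and the other 3 groups lay close together. The subunits of the other atp operon moved less: atpA (ATCG00120), the alpha subunit, stood at 70.9 FPKM in wlim2a-1 with mock against 9.73 in WT with mock, atpH, the ring subunit, at 401 against 55.9, atpI (ATCG00150) at 31.1 against 6.54, and atpF (ATCG00130) at 15.5 against 3.30.

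Genes of the NDH complex differed widely among themselves. ndhJ (ATCG00420) stood at 82.5 FPKM in wlim2a-1 with mock and 5.13 in WT with mock, a log2 difference of 3.77. Its operon partners ndhK and ndhC (ATCG00440) stood at 83.9 and 18.6 FPKM in wlim2a-1 with mock, against 8.52 and 2.199 in WT with mock. ndhH (ATCG01110), at the head of another ndh operon, stood at 14.9 FPKM in wlim2a-1 with mock and 0.614 in WT with mock, a log2 difference of 3.30. It counts as tested only through wlim2a-1 with mock, its only value of at least 1 FPKM. In contrast, ndhI (ATCG01090) stood at 0.544 FPKM in wlim2a-1 with mock and 0.495 in WT with mock, and ndhD (ATCG01050) at 2.40 and 1.14 FPKM. ndhA (ATCG01100), ndhG (ATCG01080) and ndhE (ATCG01070) of the same operon were higher but low throughout, at 3.83, 5.55 and 2.55 FPKM in wlim2a-1 with mock and 0.831, 1.68 and 0.394 FPKM in WT with mock. ndhB (ATCG00890), which lies in the repeated part of the chloroplast genome, stood at 5.86 FPKM in wlim2a-1 with mock and 1.10 in WT with mock; its other copy, ATCG01250, stood at 6.27 and 1.25 FPKM, and reads from the copies cannot be told apart.

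In the photosystems, psaA (ATCG00350) and psaB (ATCG00340), the reaction-centre proteins of photosystem I, stood at 81.4 and 94.6 FPKM in wlim2a-1 with mock, against 11.6 and 17.4 in WT with mock. psbB (ATCG00680), the CP47 antenna protein of photosystem II, stood at 129 FPKM in wlim2a-1 with mock and 22.1 in WT with mock, and psbH (ATCG00710) of the same operon at 136 and 32.1 FPKM. psbD (ATCG00270) and psbC (ATCG00280), the D2 and CP43 proteins, stood at 39.2 and 96.1 FPKM in wlim2a-1 with mock, against 10.3 and 32.7 in WT with mock. psbA did not share this pattern: it stood at 111 FPKM in wlim2a-1 with mock and 134 in WT with mock, a log2 difference of -0.28. psbK was alike, at 33.03 FPKM in wlim2a-1 with mock and 47.6 in WT with mock. rbcL stood at 557 FPKM in wlim2a-1 with mock and 118 in WT with mock, a log2 difference of 2.23.

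After flg22 the genotype difference was smaller at its median and ordered differently by complex. Of the 31 longer genes, 15 reached 2-fold higher levels in wlim2a-1 with flg22 than in WT with flg22 and 0 were lower (all 40 tested genes: 18 higher and 2 lower), beside 1.16% higher and 0.352% lower among all genes tested. The median log2 difference was 0.88 over the longer genes and -0.02 over all genes tested. The higher genes were 7 of 8 longer psb genes (psbZ, listed at 0 in WT, among them), 3 of 3 psa genes and rbcL, but only 1 of 3 pet, 2 of 6 atp and 1 of 10 ndh genes. That ndh gene was ndhI, at 1.89 FPKM in wlim2a-1 with flg22 and 0.313 in WT with flg22. It counts as tested only through this wlim2a-1 value, so its call carries no weight of its own. psbE (ATCG00580), the other subunit of cytochrome b559, stood at 99.1 FPKM in wlim2a-1 with flg22 and 17.1 in WT with flg22, which was the largest log2 difference among longer genes with a value in every group (2.47). psbA followed, with 232 FPKM in wlim2a-1 with flg22 and 59.0 in WT with flg22 (1.95), and rbcL with 179 and 55.2 FPKM (1.68). atpE and ndhB hardly differed, at 62.9 against 64.6 FPKM and 1.13 against 1.14 FPKM, while ndhC (1.72 against 3.28 FPKM) and ndhE (0.238 against 1.07 FPKM) had lower values in wlim2a-1 that did not reach 2-fold on this scale.

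The genes that differed most between the genotypes under mock were thus not those that differed most after flg22. The median log2 genotype difference of the NDH genes was 0.30 after flg22 and 1.55 under mock, and that of the ATP synthase 0.77 after flg22 and 2.78 under mock. For the 8 longer psb genes it was 1.59 after flg22 and 1.57 under mock, but over all 15 psb genes, short ones and values of 0 included, it was 1.40 after flg22 and -0.28 under mock. Across 30 genes tested and with a value in every group, the differences after flg22 and under mock, which share no column, had a Pearson r of -0.34 and a Spearman rho of -0.25; genes of an operon share their RNA, so this describes these 4 values per gene and no more.

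**Figure D3:**
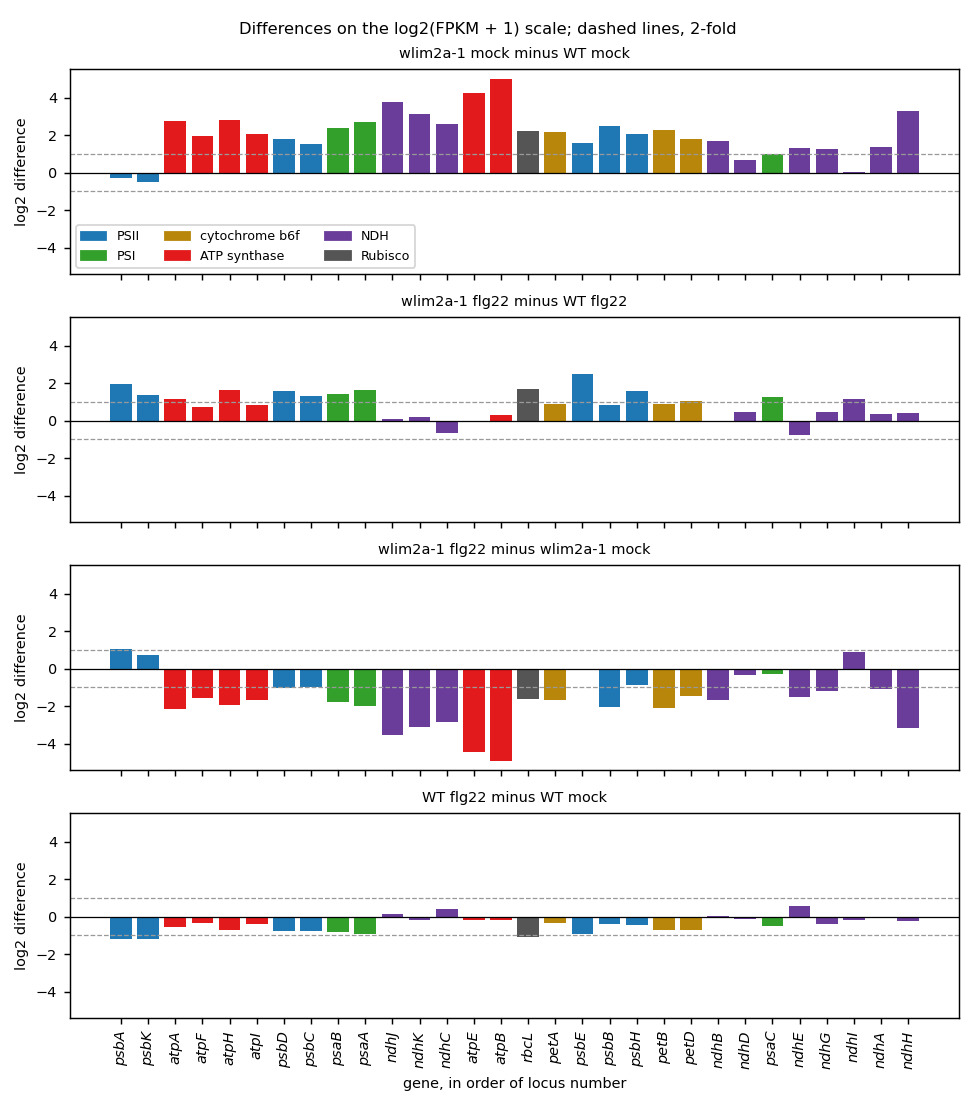
Difference in log2(FPKM + 1) for the 30 chloroplast genes of at least 150 bases that were tested and had a value in every group, 1 panel for each comparison, with genes in order of locus number and bars coloured by complex; dashed lines mark 2-fold. Between the genotypes, atpB and atpE lie near 0 after flg22 (0.31 and -0.04) and reach 5.03 and 4.27 under mock, while psbA lies at 1.95 after flg22 and -0.28 under mock.

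In wlim2a-1, chloroplast-encoded photosynthesis RNA was lower after flg22. Of the 31 longer genes, 22 were at least 2-fold lower in wlim2a-1 with flg22 than in wlim2a-1 with mock and 1 was higher, with a median of -1.64 (all 40 tested genes: 24 lower and 6 higher, median -1.495). The shares among all genes tested were 4.25% lower and 5.53% higher, with a median of -0.09. All 6 atp genes, 3 of 3 pet genes, 8 of 10 ndh genes, psaA, psaB, psbB, psbD and rbcL were lower. Of these ndh genes, ndhH was tested only through its value in wlim2a-1 with mock. atpB stood at 44.4 FPKM in wlim2a-1 with flg22 against 1373 in wlim2a-1 with mock, the largest log2 difference (-4.92), and atpE at 62.9 against 1411. ndhJ stood at 6.16 FPKM against 82.5, and petB (ATCG00720), the cytochrome b6 protein, at 5.44 against 26.9. petA (ATCG00540), cytochrome f, and petD (ATCG00730), subunit IV, stood at 7.59 and 6.85 FPKM with flg22, against 26.3 and 20.8 with mock.

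psbA went the other way and was the only longer gene counted as higher after flg22 in wlim2a-1, at 232 FPKM with flg22 and 111 with mock (log2 difference 1.06). Scaled to the mean of ACT2 and UBQ10, which puts the median of all genes at -0.63 in this comparison, the psbA difference was 0.42 and no longer reached 2-fold. psbK stood at 56.0 FPKM with flg22 and 33.03 with mock, ndhI at 1.89 and 0.544 FPKM, and psbE hardly moved, at 99.1 and 104 FPKM. psaC (ATCG01060), the iron-sulfur subunit of photosystem I, lies in the ndhH operon and stood at 33.5 FPKM with flg22 and 41.0 with mock.

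In WT the difference with flg22 was smaller. Of the 31 longer genes, 4 were at least 2-fold lower in WT with flg22 than in WT with mock and 0 were higher, with a median of -0.40; over all 40 tested genes 9 were lower and 1 was higher, with a median of -0.49. Among all genes tested, 0.471% were lower and 4.47% higher, with a median of -0.05. The 4 were psbA (59.0 FPKM with flg22 and 134 with mock), psbK (20.6 and 47.6 FPKM), rbcL (55.2 and 118 FPKM) and psbZ, listed at 0 with flg22. A further 23 of the 31 longer genes had values below those of mock without being counted, such as psbE at 17.1 FPKM with flg22 and 33.7 with mock and atpH at 33.4 and 55.9. psaA, at 5.61 FPKM with flg22 and 11.6 with mock, had a plain ratio of 2.07 and a log2 difference of -0.93, which became -1.04 with a pseudocount of 0.1. ndhE (1.07 and 0.394 FPKM), ndhC (3.28 and 2.199 FPKM) and ndhJ (5.81 and 5.13 FPKM) were among the 4 with values above those of mock. Scaled to ACT2 and UBQ10, which puts the median of all genes at -0.54 here, 21 of the 40 tested genes were at least 2-fold lower in WT with flg22. The share of all genes past 2-fold under this scaling was not counted. The 21 therefore cannot be set beside a background and are not read as a result about chloroplast genes.

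The flg22 difference of wlim2a-1 minus that of WT was -1.09 at the median of the 31 longer genes and -0.04 over all genes tested. By the 2-fold limit it was lower for 17 and higher for 4 of the 31 (all 40 tested genes: 20 lower and 10 higher), beside 3.7% lower and 1.46% higher among all genes. For each gene this value equals the genotype difference after flg22 minus that under mock, so it restates those comparisons and is no further finding. The values of wlim2a-1 with mock also enter the genotype difference under mock and the flg22 difference of wlim2a-1. By complex, the medians were -1.90 for NDH, -1.42 for the ATP synthase, -1.31 for cytochrome b6f, -0.95 for photosystem I, -0.55 for rbcL and 0.32 for photosystem II. The photosystem II sign rests on psbZ, listed at 0 in WT with flg22: without it the median of the 7 other longer psb genes was -0.22, whereas over all 15 psb genes it was 1.91. psbA had a response difference of 2.23, being higher with flg22 in wlim2a-1 and lower with flg22 in WT. psbK stood at 1.91 and ndhI at 1.09 on the same scale, ndhI on values under 2 FPKM throughout. ndhI was tested only through its value in wlim2a-1 with flg22. Across the same 30 genes the flg22 differences of wlim2a-1 and WT had a Pearson r of -0.43 and a Spearman rho of -0.38.

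Among operons with 2 or more longer genes, the median genotype difference after flg22 was 1.56 for psbD-psbC-psbZ (1.44 without psbZ, listed at 0 in WT with flg22) and 1.53 for psaA-psaB, followed by atpI-atpH-atpF-atpA (0.99), the psbB group without psbT (0.95), the ndhH to ndhD operon with psaC (0.46), atpB-atpE (0.14) and ndhC-ndhK-ndhJ (0.07). Under mock the order was atpB-atpE (4.65), ndhC-ndhK-ndhJ (3.16), psaA-psaB (2.54), atpI-atpH-atpF-atpA (2.42), the psbB group (2.15), psbD-psbC-psbZ (1.53) and the ndhH to ndhD operon (1.29). The operons at the top under mock, atpB-atpE and ndhC-ndhK-ndhJ, which are neighbours on the chloroplast map, were thus at the bottom after flg22. Some operon partners kept close ratios. The ratio of psbC to psbD was 2.57 in wlim2a-1 with flg22, 2.45 in wlim2a-1 with mock, 3.32 in WT with flg22 and 3.16 in WT with mock, and that of psaB to psaA was 1.39, 1.16, 1.66 and 1.49 in the same order. The ratio of atpE to atpB was 1.41, 1.03, 1.82 and 1.75. In contrast, atpB to atpA, which encode the alternating subunits of the catalytic head but lie in different operons, had ratios of 2.95 in wlim2a-1 with flg22, 19.4 in wlim2a-1 with mock, 5.72 in WT with flg22 and 4.22 in WT with mock. The ratio of psbA to rbcL was 1.30, 0.199, 1.07 and 1.14 in that order, low only in wlim2a-1 with mock.

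Among the 32 longer genes, the make-up of the summed FPKM stood apart in wlim2a-1 with mock. Of the summed FPKM of the 32 longer genes, the ATP synthase took 21.9% in wlim2a-1 with flg22, 65.8% in wlim2a-1 with mock, 34.7% in WT with flg22 and 26.5% in WT with mock. Photosystem II took 50.6%, 13.0%, 38.1% and 44.7% in the same order. rbcL varied less, with 16.1%, 11.1%, 13.1% and 16.6%, and photosystem I, cytochrome b6f and NDH together held the small remainder. Sums over genes lean on the highest members: atpB and atpE made up most of the ATP synthase sum in wlim2a-1 with mock. Over all 44 genes the short genes dominated and WT with flg22 stood apart instead. Photosystem I took 10.9% in wlim2a-1 with flg22, 3.70% in wlim2a-1 with mock, 39.3% in WT with flg22 and 2.72% in WT with mock. Photosystem II took 73.2%, 81.5%, 58.3% and 94.8% in that order. The photosystem I share in WT with flg22 rests on 1 short gene, psaJ, at 3859 of 9890 summed FPKM.

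**Figure D4:**
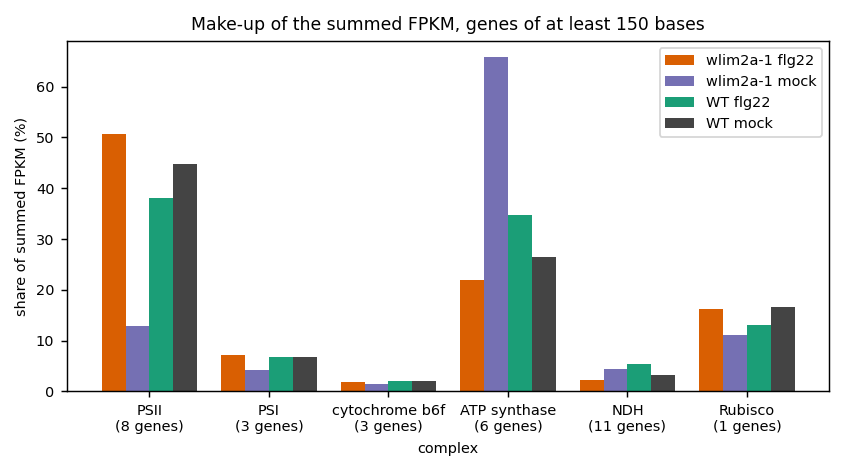
Share (%) of each complex in the summed FPKM of the 32 chloroplast photosynthesis genes of at least 150 bases, with 1 bar per group for each complex. The wlim2a-1 mock bar of the ATP synthase reaches 65.8% and those of the other groups 21.9% to 34.7%, and the wlim2a-1 mock bar of photosystem II is the lowest of its complex (13.0%).

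The pattern was not limited to photosynthesis genes of the chloroplast. The other 44 ATCG loci include ribosomal protein and polymerase genes, and also ATCG01250, the other ndhB copy. Of the 43 tested, 37 reached 2-fold higher levels in wlim2a-1 with mock than in WT with mock (median 2.49, beside 4.48% of all genes tested). After flg22, 7 were higher and 1 lower in wlim2a-1 than in WT (median 0.38, beside 1.16% and 0.352%). In wlim2a-1, 35 were lower with flg22 than with mock (median -2.27, beside 4.25%). The summed FPKM of these 44 loci was 1768 in wlim2a-1 with flg22, 13261 in wlim2a-1 with mock, 767 in WT with flg22 and 2081 in WT with mock. Of 58 tested mitochondria-encoded (ATMG) loci, 17 were higher and 2 lower in wlim2a-1 with mock than in WT with mock, with a median of 0.51. The shares among all genes tested were 4.48% and 0.611%. After flg22, 4 of the ATMG loci were higher and 0 lower in wlim2a-1 than in WT (median 0.09, beside 1.16% and 0.352%). In wlim2a-1, 9 ATMG loci were lower and 5 higher with flg22 than with mock (median -0.36, beside 4.25% and 5.53%).

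The nuclear partners of the same complexes gave smaller differences. Of 49 nuclear photosynthesis genes, 4 (8.16%) reached 2-fold higher levels in wlim2a-1 with mock than in WT with mock and 0 were lower, with a median of 0.08. The shares among all genes tested were 4.48% higher and 0.611% lower. The 4 were PnsB1, an NDH subunit (104 FPKM in wlim2a-1 with mock and 24.2 in WT with mock), PnsB3, a further NDH subunit named after its values were seen (34.0 and 15.2 FPKM), PSBTN, a small photosystem II subunit (10018 and 4804 FPKM), and RBCS1A, a Rubisco small subunit gene that was listed at 11504 FPKM in wlim2a-1 with flg22, at 14401 FPKM in wlim2a-1 with mock and at 0 in both WT groups. RBCS1A is counted only through these listed zeros, which are not read as absence of its RNA: the similar genes RBCS1B, RBCS2B and RBCS3B stood between 3137 and 8062 FPKM in WT, and how reads were shared among the 4 was not tested. The 12 nuclear subunits of photosystem I had a median of 0.20 in this comparison, from 0.57 for PSAG to -0.09 for PSAO, and both nuclear ATP synthase genes lay below 2-fold (ATPD 0.28 and ATPC1 0.05). The lowest differences of the other lists lay between -0.24 for RBCS2B and -0.36 for PnsL1, with -0.33 for PSBO1 and -0.27 for FED A, and the highest for partners of cytochrome b6f was 0.46, for FNR2. In wlim2a-1, 7 of the 49 (14.3%) were lower with flg22 than with mock (median -0.47), beside 4.25% of all genes tested. Counting smaller differences too, 47 of the 49 had values below those of mock. In WT 0 of the 49 were lower by 2-fold (median -0.12), beside 0.471% of all genes tested.

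Of 19 nuclear genes for sigma factors, phage-type polymerase and proteins bound to the plastid polymerase, 0 reached 2-fold between wlim2a-1 with mock and WT with mock, with a median of 0.33. SIG2, a sigma factor, lay at the limit: at 48.5 FPKM in wlim2a-1 with mock and 23.8 in WT with mock its plain ratio is above 2, and only the added 1 keeps it from being counted. PTAC2 was nearly level, at 24.2 and 24.3 FPKM. In wlim2a-1, 2 of the 19 were lower with flg22 than with mock: SIG2, at 18.6 FPKM with flg22, and PTAC3, named after its values were seen, at 11.6 FPKM with flg22 and 25.3 with mock. That is 10.5%, beside 4.25% of all genes tested. Of 14 genes for plastid RNA processing and stability, 1 (7.14%, beside 4.48% of all genes tested) was higher in wlim2a-1 with mock than in WT with mock. This was HCF173, which is required for translation of psbA RNA, at 25.5 and 11.1 FPKM. The lowest difference of that list was -0.35, for CP29, an abundant chloroplast RNA-binding protein.

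Root tissue holds few chloroplasts, and 8 root marker genes were therefore read beside these values. Their summed FPKM was 298 in wlim2a-1 with flg22, 230.4 in wlim2a-1 with mock, 286 in WT with flg22 and 318 in WT with mock. PYK10 alone made up most of each sum, from 161 FPKM in wlim2a-1 with mock to 216 in WT with mock. The root sum was lowest in wlim2a-1 with mock, where the longer chloroplast genes summed highest (5023 FPKM). This inverse order did not hold across all groups. WT with flg22 had the lowest chloroplast sum (423 FPKM), yet its root sum was below that of WT with mock (chloroplast sum 710 FPKM). Between wlim2a-1 with mock and WT with mock, the root markers had a median of -0.48 on the log2 scale. Single values ran from -0.07 for SCR to -0.75 for CASP1, and 0 of 8 reached 2-fold in any comparison. The part of tissue make-up in the chloroplast result was not tested.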

How the data were processed

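RNA was sequenced from 12 samples, 3 biological replicates in each of 4 groups. Per the labels and the study's methods, the authors aligned reads to TAIR10 with TopHat2 2.1.1, estimated expression with Cufflinks and compared groups with Cuffdiff 2.2.1 under quartile normalization, after FastQC 0.11.5; limma is also named in the processing notes. The deposited table holds 1 FPKM per gene and group, the authors' value over the pooled replicates; it keeps no depth and allows no error, test, replicate left out or pairing.

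Differences were computed as log2(FPKM + 1) with Python 3.11, pandas 2.3.3 and NumPy 2.4.6, for genes with at least 1 FPKM in at least 1 group, and counted at 2-fold. The functions were tested on simulated data. The 44 genes, the lists and the rules were chosen with earlier results of these data known. The limit of 150 bases was set after seeing the values.

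Neither the table nor the RefSeq gene table pairs ATCG numbers with symbols. Symbols, complexes and operons are those of standard Arabidopsis nomenclature; gene lengths are those of the RefSeq (TAIR10.1) entry of the same symbol and rest on that pairing. As a check, all 44 symbols were in RefSeq's plastid annotation, which holds 44 distinct psa, psb, pet, atp, ndh and rbcL symbols, and 43 of 43 neighbouring pairs had the same order by locus number and by position. Of 97 loci fixed for the nuclear, root and reference lists, 92 were named by RefSeq and used, and 5 were left out. A planned list of ribosomal and small nuclear RNA loci was not used.

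All 44 genes could be named. Full values were to be given for psbA, rbcL, the highest and lowest gene of each complex, genes listed at 0, the largest and smallest difference of each comparison, genes past 2-fold against the median, and, in each other list, the largest and smallest genotype difference under mock. Alternatives were pseudocounts of 0.1 and 5, a minimum of 5 FPKM or none, limits of 1.5-fold and 4-fold, scaling to the upper quartile, to the sum without AT2G01021 or to ACT2 and UBQ10, and genes above 0 in every group, of at least 300 bases, of at least 150 bases (added) or, for photosystem II and its psbD operon, without psbZ (added).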

Additional observations from a re-analysis of the deposited data

Results flagged for a closer look

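Among chloroplast genes with a value in every group, 3 differed by 2-fold or more in opposite directions. Smaller differences of opposite sign, and those of genes listed at 0 in some group (such as psbF and psbT), were not taken up here. psbA was higher with flg22 in wlim2a-1 (232 against 111 FPKM with mock) and lower with flg22 in WT (59.0 against 134 FPKM with mock), a response difference of 2.23 on the log2 scale. psbJ, of the short genes, was higher with flg22 in wlim2a-1 (1457 against 379.7 FPKM) and lower with flg22 in WT (734 against 1732 FPKM), a response difference of 3.17. psaJ, also short, had a lower value in wlim2a-1 with flg22 than in flg22-treated WT (984 against 3859 FPKM) and a higher value in wlim2a-1 with mock than in mock-treated WT (820.3 against 321.5 FPKM), a difference of -3.32 between the 2 genotype comparisons. None of these differences was tested, since each group has 1 value.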

How the results depend on the processing

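No paired analysis was possible because the table holds 1 value per gene and group, and for the same reason no replicate could be left out. The values here are over all 40 tested genes. Shares among all genes were counted only in the main setting, at 2-fold. Counts under other fold limits, pseudocounts, minima or scalings therefore have no background beside them and show only how the main counts shift. Pseudocounts mattered for low genes: with 0.1, 2 genes were higher with flg22 in WT (1 with a pseudocount of 1) and the genotype median after flg22 was 1.01 (0.89), and with 5 the flg22 median in wlim2a-1 was -0.90 (-1.495). A minimum of 5 FPKM gave a response difference of -1.02 (-0.98). Scaling to ACT2 and UBQ10 gave an flg22 median in WT of -1.03 with 21 genes lower (9), and a response difference of -1.04; scaling without AT2G01021 gave a genotype median after flg22 of 1.05. Genes above 0 in every group gave 2 higher with flg22 in wlim2a-1 (6), 5 lower with flg22 in WT, 1 lower in wlim2a-1 under mock (5), 1 lower after flg22 (2), a response difference of -1.19 with 4 higher (10), and for photosystem II a response difference of -0.22, turned from 1.91. Genes of at least 300 bases gave 1 higher with flg22 in wlim2a-1, 0 higher and 2 lower with flg22 in WT, 0 lower in wlim2a-1 under mock, 9 higher (18) and 0 lower after flg22, a response difference of -1.26 with 2 higher, and for photosystem II -0.24. Genes of at least 150 bases gave 1 higher with flg22 in wlim2a-1, 0 higher and 4 lower with flg22 in WT, 0 lower in wlim2a-1 under mock and after flg22, and a response difference of -1.09 with 4 higher. At 1.5-fold, 17 genes were lower with flg22 in WT and 5 lower in wlim2a-1 after flg22; at 4-fold, 12 were lower with flg22 in wlim2a-1 (24), 4 in WT, 17 higher in wlim2a-1 under mock (28), 4 higher and 1 lower after flg22, and 9 had a lower response (20). The subsets hold fewer genes by construction; the cause of the other shifts was not tested. Of the main counts and medians over all alternatives, 133 stayed within 1.5-fold of the main value, the medians among them also on their side of 2-fold. Direction was checked only for medians past 2-fold. Of the rest, 28 moved further, 8 passed 2-fold only under the alternative and 1 no longer passed it. Depth is unknown, so no limit of detection can be given.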
